A study of Mus musculus with 8 samples.

Results

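The collagen gene family was read as every probe set of the array that is annotated to 1 gene whose symbol is Col, a number, a and a number, the form used for collagen alpha chains. The rule found 82 probe sets for 42 genes, among 45101 probe sets that name 18194 genes. Membership rested on the symbol alone and used no measured value. The choice of this family was made with earlier results of these data known. Of the 42 genes, 24 had at least 1 probe set bright enough to test, which required a mean log2 value above that of the median probe set (an intensity of 11.9). Each gene is given by its brightest such probe set, and the other 18 are accounted for by their highest intensity. The array carried no probe set naming 3 further chains of the family (Col6a6, Col21a1 and Col28a1) alone.

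RNA came from 8 samples of Peyer's patches, which are lymphoid follicles in the gut wall, of 8 C3H/Hej mice, an inbred strain. From 6 weeks of age, 6 mice were given ovalbumin (OVA), an egg white protein and food allergen, by gavage at 40 mg/kg each day for 28 days, and 2 mice were given normal saline as controls. The groups were 1 female control (labelled 7), 1 male control (8), 2 female OVA mice (2 and 12) and 4 male OVA mice (1, 5, 8 and 13), so each sex had a single control. The labels call the OVA mice allergic, and no readout of allergy was used here. Each sample was hybridised to a single-colour array. The deposited intensities are linear, and their trimmed mean per array, over the 2 to 98% range, was 65.1 to 68.2. With 8 arrays, precision is limited by their number. The labels' extraction text names parietal cortex of a patient, against the tissue label. Of 10 cerebral cortex markers, 3 passed the intensity filter, Mbp at 158 to 204, Aqp4 at 45.4 to 69.5 and Camk2a at 23 to 34.1 over the 8 arrays. Another 6 reached at most 6.47 on any array, while 11 of 12 B cell markers passed.

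Collagens are proteins, most of them secreted, of 3 alpha chains wound into a triple helix rich in glycine and proline. Fibrillar chains build the rope-like fibrils that give connective tissue its strength, and type I and type III collagen are the main ones of the gut submucosa. Type IV chains form the sheet-like network of basement membranes under epithelium, around smooth muscle cells and around vessels. Type VI chains assemble into beaded filaments that lie between fibrils and basement membranes. In a lymphoid organ such as a Peyer's patch, collagens are made mainly by fibroblastic and reticular stromal cells, pericytes and smooth muscle cells, and by endothelium for the basement membrane chains.

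Collagen transcripts were mostly at lower levels in OVA mice than in controls, by small amounts that did not pass the test. Of the 24 tested genes, 21 were on the lower side in OVA mice and 3 on the higher side, by the difference adjusted for sex. By the same measure 46.3% of all 11988 genes were lower. Without sex in the fit 20 of the collagens were lower, with Col27a1 on the higher side. The median difference was -0.11 over the collagens and 0.019 over all genes, on the scale of log2(intensity + 4.88) that is used for every difference here. No collagen passed limma with Benjamini-Hochberg adjustment over all 22518 probe sets tested (smallest adjusted p = 0.382), and 0% of those probe sets did (smallest adjusted p = 0.21). At an unadjusted p under 0.05, with each gene read at its brightest probe set, limma gave 5 collagens on the lower side, against 3.82% of all genes, and 0 on the higher side, against 6.39%. The 5 were Col6a1, Col6a2, Col6a3 and Col6a4 of the beaded filament class and the transmembrane collagen Col23a1. All 6 OVA arrays lay below both controls for 5 collagens (Col4a1, Col6a1, Col6a3, Col8a1 and Col23a1), where 4.65% of all genes did so, and above both for 0, against 7.99%. The fit had treatment and sex as terms. In whole tissue, fewer cells of a type and less RNA per cell cannot be told apart.

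**Figure D1:**
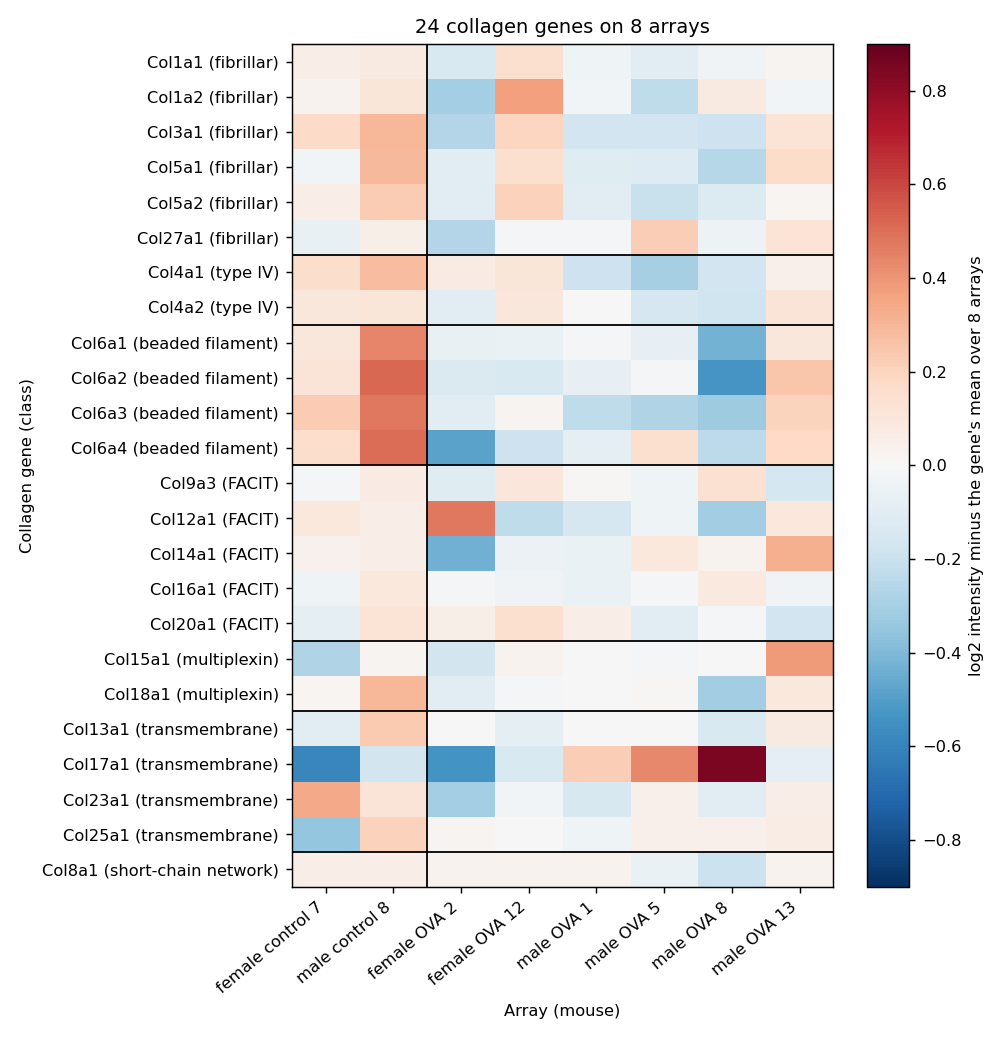
Log2 intensity of the 24 tested collagen genes (rows, grouped by class) on the 8 arrays (columns, controls left of the line), each relative to that gene's mean over the arrays. Male control 8 is above the gene's mean in 23 of 24 rows, and the beaded filament rows run from -0.53 for Col6a2 in male OVA 8 to 0.52 in male control 8. The count of rows above the mean was not taken over all genes, whose median in male control 8 is 0.0052.

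One control carried much of this pattern. Male control 8 held the highest intensity of all 8 arrays for 12 of the 24 collagens and the lowest for 0, while female control 7 was highest for 2. The lowest value lay in male OVA 8 for 9 genes and in female OVA 2 for 7. These counts were not taken over all genes, so they are not read as particular to collagens. Relative to each gene's mean, the median in male control 8 was 0.12 over the collagens and 0.0052 over all genes. Within males, all 4 OVA mice were below the male control for 17 of 24 collagens, against 23.7% of all genes. Within females, both OVA mice were below the female control for 9 of 24, against 32.2%. Without male control 8, which leaves the contrast within females, 15 of the 24 genes were lower and the median was -0.041. Without female control 7 the values were 20 genes and -0.17, and without female OVA 12 the median was -0.17. The count of collagens on the lower side at an unadjusted p under 0.05 was 2 without female OVA 2, 2 without male OVA 1 and 3 without male OVA 5. The shares of all genes with an array left out were not taken, so these counts describe the collagens only.

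**Figure D2:**
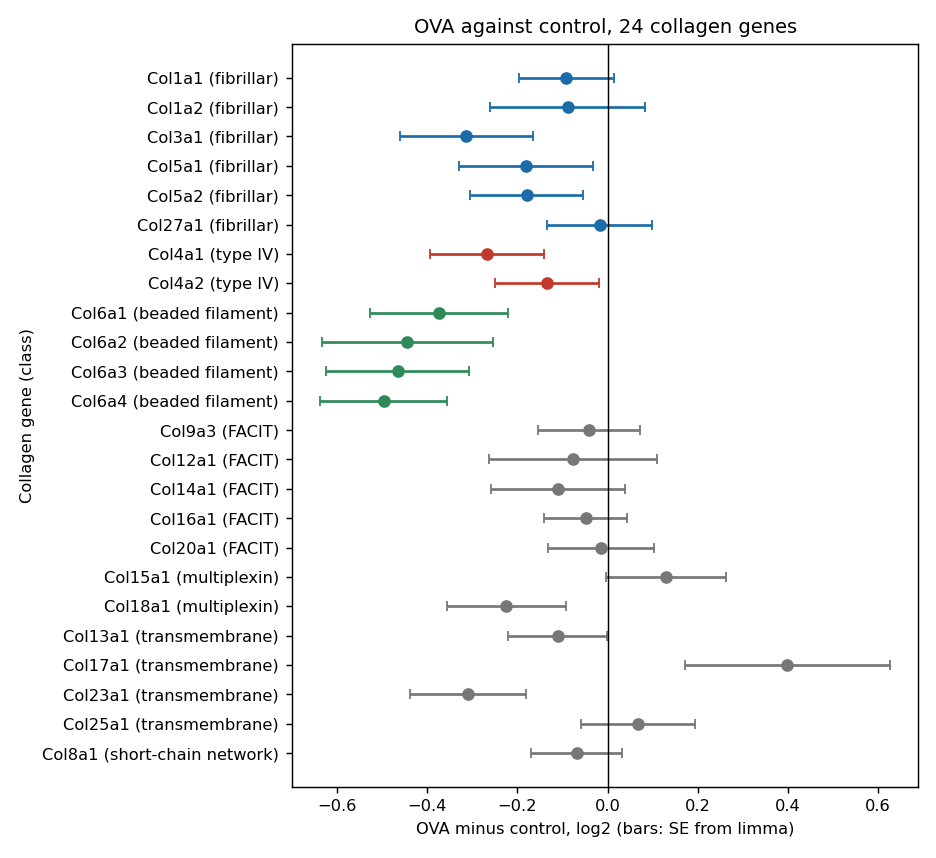
Difference between OVA and control mice on the log2 scale for the 24 tested collagens, grouped by class, with the standard error from limma as bars (6 OVA and 2 control arrays). The 4 beaded filament genes lie between -0.50 and -0.37, and Col17a1 at 0.40 is the farthest to the right. Col17a1 passed the intensity filter only through the male OVA mice.

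Of the 11 fibrillar chains on the array, 6 passed the filter. Their differences ran from -0.31 to -0.018, all on the lower side, with a median of -0.14. By the brightest probe sets no fibrillar chain had all OVA arrays below both controls, against the 4.65% of all genes given above. On dimmer probe sets of Col3a1 and Col5a2 all OVA arrays were below both. Without male control 8 the fibrillar median was -0.030. Without female OVA 12 it was -0.24 and without female control 7 also -0.24.

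Col1a1 and Col1a2 encode the chains of type I collagen, which joins 2 alpha 1 chains and 1 alpha 2 chain. Col1a1 had an intensity of 49.9 in female control 7 and 50.7 in male control 8, 42.9 and 53.2 in female OVA 2 and 12, and 46.1, 43.9, 46.4 and 48.6 in male OVA 1, 5, 8 and 13. Col1a2 had an intensity of 1113 in female control 7 and 1171 in male control 8, 877 and 1402 in female OVA 2 and 12, and 1066, 927, 1150.0 and 1068 in male OVA 1, 5, 8 and 13. For both genes female OVA 12 was the highest and female OVA 2 the lowest of the 8 arrays, so the widest gap lay between the 2 female OVA mice and the OVA group spanned both controls. Col1a2 had a mean of 1142 ± 41.4 (SD, n = 2) for controls and 1081 ± 186 (SD, n = 6) for OVA mice. The difference was -0.089 ± 0.17 (SE) for Col1a2 (limma unadjusted p = 0.621, adjusted p = 0.851) and -0.091 ± 0.11 (SE) for Col1a1 (limma unadjusted p = 0.41, adjusted p = 0.741). Without female OVA 2 the sign of Col1a2 turned, to 0.030.

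Col3a1 encodes the single chain of type III collagen, the fibril of reticular meshworks in lymphoid tissue. Its intensity was 1362 in female control 7 and 1489.8 in male control 8, 1007 and 1379.7 in female OVA 2 and 12, and 1072, 1074, 1063 and 1317 in male OVA 1, 5, 8 and 13. Both controls, female OVA 12 and male OVA 13 were high, and the other 4 of the OVA mice (female OVA 2 and male OVA 1, 5 and 8) lay between 1007 and 1074. The means were 1426 ± 90.7 (SD, n = 2) for controls and 1152 ± 155 (SD, n = 6) for OVA mice, a difference of -0.31 ± 0.15 (SE) (limma unadjusted p = 0.0639, adjusted p = 0.465). A dimmer probe set of Col3a1 was at -0.25 ± 0.12 (SE), with 47.2 to 62.4 in OVA mice, below the controls at 64.3 and 68.8.

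The upstream sequences of Col1a2 and Col3a1 are shown because these fibrillar genes followed Col1a1 across the arrays, as described further on, while their promoters differ in composition. They are the 250 bases before the annotated start in RefSeq on GRCm38.p6, read 5′ to 3′ on the gene's strand. Capitals mark matches, on either strand, to a CCAAT box, to the GC box GGGCGG or to TATAAA. The Col1a2 stretch lies at chr6:4505368-4505617 on the plus strand and is 62% G and C, with 2 GC boxes and 1 CCAAT match that begins 109 bases before the start. The Col3a1 stretch lies at chr1:45311288-45311537 on the plus strand and is 35.2% G and C, with 1 TATAAA match beginning 117 bases before the start.
Col1a2: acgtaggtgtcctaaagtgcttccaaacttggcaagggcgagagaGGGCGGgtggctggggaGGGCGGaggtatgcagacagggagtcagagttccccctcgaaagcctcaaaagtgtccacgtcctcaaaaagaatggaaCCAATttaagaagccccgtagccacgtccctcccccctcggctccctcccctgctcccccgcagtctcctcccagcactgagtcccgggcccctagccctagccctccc
Col3a1: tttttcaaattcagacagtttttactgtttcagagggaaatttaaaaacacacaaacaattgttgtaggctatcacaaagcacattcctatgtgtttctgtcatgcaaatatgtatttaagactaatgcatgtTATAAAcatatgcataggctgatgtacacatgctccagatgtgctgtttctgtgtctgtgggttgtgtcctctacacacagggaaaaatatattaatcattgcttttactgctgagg

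Of the 24 tested genes, 19 had a window in the RefSeq table, 21 windows in all. CCAAT was found in 8 of these 21 windows and in 33.9% of all 32851 windows of this length. GGGCGG was found in 12 of 21 and in 32.7%, and TATAAA in 3 of 21 and in 12.4%. The median G and C content was 60.4% in the collagen windows and 52.4% in all windows. A match is a description of letters and not evidence that a factor binds there.

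Col5a1 and Col5a2 encode type V collagen, a minor fibrillar collagen that starts fibrils and sets their width. Col5a1 had an intensity of 72.6 in female control 7 and 91.6 in male control 8, 68.8 and 82.1 in female OVA 2 and 12, and 68.2, 67.9, 61.2 and 83.6 in male OVA 1, 5, 8 and 13. Col5a2 had an intensity of 183 in female control 7 and 207 in male control 8, 164 and 204 in female OVA 2 and 12, and 164, 153, 161 and 178 in male OVA 1, 5, 8 and 13. Male control 8 was the highest for both, and female OVA 12 was above female control 7, so the groups overlapped. The differences were -0.18 ± 0.15 (SE) for Col5a1 (limma unadjusted p = 0.255, adjusted p = 0.635) and -0.18 ± 0.13 (SE) for Col5a2 (limma unadjusted p = 0.189, adjusted p = 0.582), and Col5a1 turned to 0.047 without male control 8. The dimmer probe sets had larger differences. That of Col5a1 was at -0.37 ± 0.16 (SE) (limma unadjusted p = 0.0464, adjusted p = 0.438) with the groups overlapping. That of Col5a2 was at -0.25 ± 0.11 (SE) (limma unadjusted p = 0.062, adjusted p = 0.461) with 12.7 to 17.6 in OVA mice, below the controls at 18.2 and 19. In the reference gene order Col5a2 is the protein-coding neighbour of Col3a1 on chromosome 1. Col27a1, a fibrillar chain of cartilage and epithelia, had an intensity of 41.2 in female control 7 and 45.2 in male control 8, 35.4 and 43.2 in female OVA 2 and 12, and 43.2, 51.5, 41.9 and 47.9 in male OVA 1, 5, 8 and 13. It was highest in male OVA 5 and lowest in female OVA 2, the difference was -0.018 ± 0.12 (SE), and its other probe set was at 0.14. The fibrillar chains Col2a1, Col5a3, Col11a1, Col11a2 and Col24a1, of which the first and the type XI chains mark cartilage, stayed below the filter at an intensity of 11.9 and reached at most 9.44 on any array.

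Of the 6 type IV chains, the ubiquitous pair Col4a1 and Col4a2, which combine into 1 trimer, passed the filter. Col4a1 had an intensity of 436 in female control 7 and 475 in male control 8, 411 and 421 in female OVA 2 and 12, and 343, 316, 346 and 403 in male OVA 1, 5, 8 and 13. All 6 OVA mice were below both controls, and male OVA 1, 5 and 8 were the lowest. The means were 455 ± 27.5 (SD, n = 2) for controls and 373 ± 43.6 (SD, n = 6) for OVA mice, a difference of -0.27 ± 0.13 (SE) (limma unadjusted p = 0.066, adjusted p = 0.468). Its dimmer probe set, at -0.17 ± 0.10 (SE), had the groups overlapping, with 121 in female control 7 and 123 in male OVA 13. Col4a2 had an intensity of 217 in female control 7 and 218 in male control 8, 189 and 217 in female OVA 2 and 12, and 201, 181, 177 and 219 in male OVA 1, 5, 8 and 13. Male OVA 13 was the highest of the 8 arrays and female OVA 12 equalled female control 7 after rounding, so the groups overlapped, and the difference was -0.13 ± 0.12 (SE) (limma unadjusted p = 0.279, adjusted p = 0.652). The type IV median was -0.20, and -0.082 without male control 8. The chains of specialised basement membranes, Col4a3, Col4a4, Col4a5 and Col4a6, had means below the filter and reached at most 7.02, 7.22, 14.3 and 12.1.

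Col4a1 and Col4a2 lie head to head on chromosome 8, and the stretch that holds both annotated starts is shown because the pair is transcribed from a common promoter region. Their 300-base RefSeq promoter windows share 78 bases. The start of Col4a2 on the plus strand is base 11312805 and that of Col4a1 on the minus strand is base 11312826, on GRCm38.p6. The stretch covers chr8:11312801-11312830 on the plus strand, and capitals mark the 22 bases from one start to the other. In this annotation the transcripts overlap there, so these bases lie within both and not between the genes.
Col4a1 and Col4a2: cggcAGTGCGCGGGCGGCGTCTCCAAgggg

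Type VI chains had a lower median than fibrillar or type IV chains. Of the 5 on the array, 4 passed the filter, with a median of -0.45, and Col6a5 reached at most 3.52. Without male control 8 the median was -0.26. For all 4 chains both female OVA mice were below female control 7, against 32.2% of all genes, and all 4 male OVA mice were below male control 8, against 23.7%.

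Col6a1 and Col6a2 encode the short chains of the type VI trimer, and Col6a3 its long chain. Col6a1 had an intensity of 301 in female control 7 and 383 in male control 8, 267 and 269 in female OVA 2 and 12, and 277, 266, 208 and 301 in male OVA 1, 5, 8 and 13. Male control 8 was the highest and male OVA 8 the lowest, and male OVA 13 lay just below female control 7, both rounding to the same value. The means were 342 ± 57.5 (SD, n = 2) for controls and 265 ± 30.7 (SD, n = 6) for OVA mice, a difference of -0.37 ± 0.15 (SE) (limma unadjusted p = 0.0384, adjusted p = 0.426). Col6a2 ran from 276 in male OVA 8 to 478 in male OVA 13 and stood at 435 and 575 in the controls, so the groups overlapped. Its difference was -0.44 ± 0.19 (SE) (limma unadjusted p = 0.045, adjusted p = 0.436), and the other Col6a2 probe set was at -0.25 ± 0.19 (SE).

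Col6a3 had an intensity of 234 in female control 7 and 278 in male control 8, 185 and 203 in female OVA 2 and 12, and 169, 164, 159 and 229 in male OVA 1, 5, 8 and 13. All 6 OVA mice were below both controls, and male OVA 13 was the nearest to them. The means were 256 ± 31.4 (SD, n = 2) for controls and 185 ± 27 (SD, n = 6) for OVA mice, a difference of -0.46 ± 0.16 (SE) (limma unadjusted p = 0.0176, adjusted p = 0.409). Col6a4, a long chain related to Col6a3, had an intensity of 82.9 in female control 7 and 106 in male control 8, 51.5 and 64.1 in female OVA 2 and 12, and 69.4, 82.2, 61.8 and 84.3 in male OVA 1, 5, 8 and 13. Female OVA 2 was the lowest, and male OVA 13 lay above female control 7. Its difference of -0.50 ± 0.14 (SE) had the smallest p of the family (limma unadjusted p = 0.00701, adjusted p = 0.382).

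The upstream stretches of Col6a1 and Col6a3 are shown as those of the class with the lowest median difference. Neither holds any of the 3 motifs on either strand, so no letters are in capitals, which says only that these letters are absent from the window. The other tested chains of the class, not printed, do hold matches. Col6a2 has 1 and 3 matches to GGGCGG in its 2 windows, which overlap, and Col6a4 has 2 to GGGCGG and 1 to CCAAT. Col6a1 lies at chr10:76726045-76726294 and Col6a3 at chr1:90843972-90844221, both on the minus strand of GRCm38.p6, from RefSeq.
Col6a1: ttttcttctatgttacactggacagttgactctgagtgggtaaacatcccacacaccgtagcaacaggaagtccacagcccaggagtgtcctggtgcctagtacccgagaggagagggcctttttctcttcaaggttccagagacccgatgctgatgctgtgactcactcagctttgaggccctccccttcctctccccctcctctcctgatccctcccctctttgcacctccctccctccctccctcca
Col6a3: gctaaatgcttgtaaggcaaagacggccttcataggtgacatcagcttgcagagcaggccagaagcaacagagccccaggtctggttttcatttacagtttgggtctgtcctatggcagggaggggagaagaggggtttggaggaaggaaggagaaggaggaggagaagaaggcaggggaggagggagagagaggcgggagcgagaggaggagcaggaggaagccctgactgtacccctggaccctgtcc

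The remaining classes held 12 of the tested genes. Among the fibril-associated collagens, which coat fibrils and carry interrupted helices, 5 of 9 passed the filter, and their differences ran from -0.11 for Col14a1 to -0.015 for Col20a1, with Col9a3, Col12a1 and Col16a1 between. Col9a3, a chain of cartilage type IX collagen, was at 12.8 and 13.9 in the controls and 11.1 to 14.8 in OVA mice. Col16a1, found in smooth muscle and dermis, was at 43.3 and 48 in the controls and 42.4 to 47.7 in OVA mice, and Col20a1 at 17.4 and 20.9 against 16.1 to 21.2. In these 3 genes the groups overlapped. The multiplexins Col15a1 and Col18a1, proteoglycan collagens of the basement membrane zone, were at 0.13 ± 0.13 (SE) and -0.22 ± 0.13 (SE). A dimmer probe set of Col18a1 was at -0.065 ± 0.12 (SE). Col18a1, whose end fragment is endostatin, had an intensity of 140.2 in female control 7 and 172 in male control 8, 129.6 and 137 in female OVA 2 and 12, and 139, 139.8, 111 and 148 in male OVA 1, 5, 8 and 13, with male control 8 the highest, male OVA 8 the lowest and male OVA 13 above the female control. Col8a1, a short-chain network collagen of vessels, had an intensity of 16.2 in female control 7 and 16.2 in male control 8, 15.8 and 15.8 in female OVA 2 and 12, and 15.8, 14.5, 12.8 and 15.8 in male OVA 1, 5, 8 and 13. All OVA mice were below both controls, 4 of them by little and at the same value, and the difference was -0.069 ± 0.10 (SE). Col7a1, which anchors the epidermal basement membrane, was just under the filter and reached at most 13.2. The 7 other chains below the filter were Col8a2, Col9a1, Col9a2, Col10a1, Col19a1, Col22a1 and Col26a1, at most 9.93.

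Transmembrane collagens are anchored in the cell surface, and all 4 on the array passed the filter. Col23a1 had an intensity of 39.3 in female control 7 and 32.9 in male control 8, 23.3 and 29.5 in female OVA 2 and 12, and 26.7, 31.2, 27.9 and 31.6 in male OVA 1, 5, 8 and 13. All OVA mice were below both controls, and the difference was -0.31 ± 0.13 (SE) (limma unadjusted p = 0.041, adjusted p = 0.43). Its 2 dimmer probe sets were at -0.18 and -0.18, and on both the groups overlapped. The brighter of them had 19.4 and 24.2 in the controls and 15.1 to 20.5 in OVA mice. The dimmer had 15.4 and 13.8 in the controls and 9.26 to 14.4 in OVA mice. Col13a1 was at 20.8 and 27.3 in the controls and 20 to 24.1 in OVA mice, so the groups overlapped (difference -0.11 ± 0.11 (SE)).

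The 3 collagens on the higher side were Col17a1, Col15a1 and Col25a1. Col17a1, the hemidesmosome collagen of basal epithelial cells, had an intensity of 7.12 in female control 7 and 11.2 in male control 8, 7.56 and 11.5 in female OVA 2 and 12, and 16.2, 19.5, 27.6 and 12.2 in male OVA 1, 5, 8 and 13. Male OVA 1, 5, 8 and 13 were above both controls, male OVA 8 most, as was female OVA 12, while female OVA 2 lay between the controls. The difference was 0.40 ± 0.23 (SE) (limma unadjusted p = 0.115, adjusted p = 0.519), at a mean near the filter. Its mean log2 value was 3.80 in controls and 3.84 in female OVA mice, both below the filter at 4.07. In male OVA mice it was 4.53, so the gene passed the filter only through the group where it was high. Its differences by treatment and by sex are therefore given as description only. Col15a1 had an intensity of 11.5 in female control 7 and 15.2 in male control 8, 12.7 and 15.3 in female OVA 2 and 12, and 15, 14.8, 15 and 20.9 in male OVA 1, 5, 8 and 13. Male OVA 13 stood apart, and the other OVA mice lay among or near the controls (difference 0.13 ± 0.13 (SE); limma unadjusted p = 0.357, adjusted p = 0.704). Col25a1 had an intensity of 18.2 in female control 7 and 28.9 in male control 8, 24.9 and 24.5 in female OVA 2 and 12, and 23.6, 25.3, 25.4 and 25.8 in male OVA 1, 5, 8 and 13. The controls were the lowest and the highest array, with all OVA mice between them (difference 0.067 ± 0.13 (SE); limma unadjusted p = 0.607, adjusted p = 0.845).

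Different probe sets of a gene read the same RNA on the same arrays, so they check the probes and not the OVA difference. Of the 24 genes, 12 had more than 1 probe set past the filter. In 11 of these every probe set had the same sign for OVA against control. This share was not taken over all genes. Col27a1 was the exception. Equal values on 2 or more arrays, with no tolerance, occurred in the chosen probe set of 5 of the 24 genes, and in 51.5% of all probe sets.

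Fibrillar and basement membrane chains were next set against each other by a class score, the mean log2 intensity over the tested genes of the class on each array. Levels of different genes on an array are not comparable, so scores are given relative to their mean over the 8 arrays, and no test was made on a score over chosen genes. The fibrillar score was 0.038 and 0.18 in female and male control, -0.19 and 0.17 in female OVA 2 and 12, and -0.076, -0.099, -0.093 and 0.073 in male OVA 1, 5, 8 and 13. The type IV score was 0.13 and 0.19 in female and male control, -0.010 and 0.10 in female OVA 2 and 12, and -0.095, -0.23, -0.18 and 0.081 in male OVA 1, 5, 8 and 13. The classes had the same sign on all 8 arrays. The male control was highest for both, and the lowest array was female OVA 2 for fibrillar chains and male OVA 5 for type IV chains.

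The score of fibrillar minus type IV chains measured where they parted. Relative to its mean it was -0.091 and -0.017 in the controls, -0.18 and 0.070 in female OVA 2 and 12, and 0.019, 0.13, 0.082 and -0.0080 in male OVA 1, 5, 8 and 13. Female OVA 2 was the lowest and male OVA 5 the highest, and the controls lay between them. The mean in OVA mice exceeded that in controls by 0.072, with an SD of 0.11 among the 6 OVA mice and 0.052 between the 2 controls, so the gap was within the spread of OVA mice. With Col15a1 and Col18a1 counted among the basement membrane chains its sign turned, to -0.024. The score for beaded filament chains was 0.15 and 0.48 in the controls and -0.38 to 0.18 in OVA mice, with male OVA 8 at the low end and male OVA 13 at the high end.

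**Figure D3:**
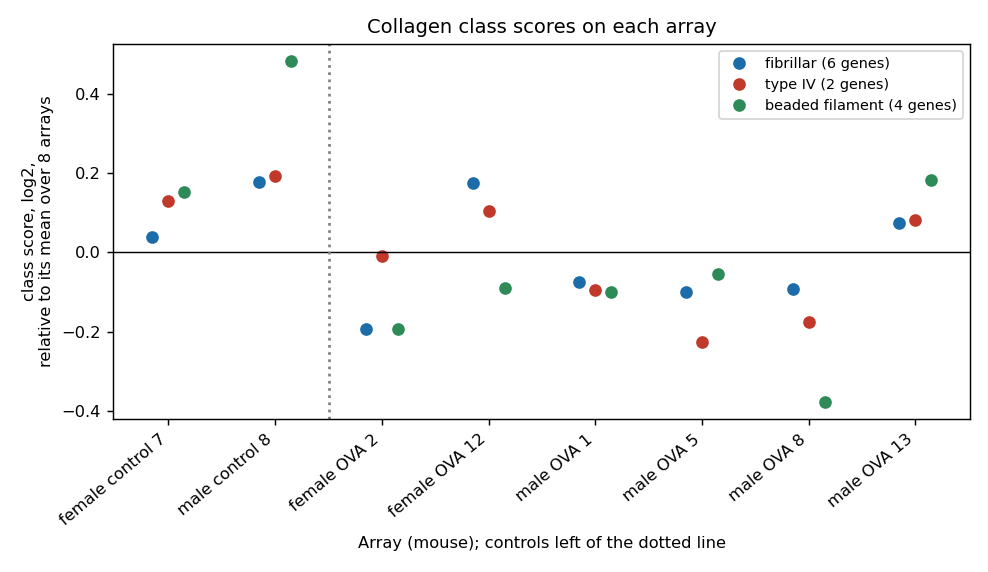
Mean log2 intensity of the fibrillar (6 genes), type IV (2 genes) and beaded filament (4 genes) collagens on each array, relative to each class's own mean over the 8 arrays; controls stand left of the dotted line. Female OVA 12 and male OVA 13 are the OVA mice in which the fibrillar and type IV points lie above 0, at 0.17 and 0.10, and at 0.073 and 0.081.

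Chains that share a trimer or a fibril were compared across the 8 arrays in a family of 7 pairs, with two-sided exact permutation tests over 40320 pairings and adjustment over the 7. All 8 arrays share 1 tissue and platform, and both chains of a pair come from the same RNA. The type I chains Col1a1 and Col1a2 had r = 0.92 (p = 0.00131 by exact permutation, 0.0046 after adjustment) and rho = 0.93 (p = 0.00223 by exact permutation, 0.0156 after adjustment). This pair had r = 0.77 without female OVA 12 and female OVA 2, the arrays farthest from the median of Col1a1, and r = 0.94 over the 6 OVA arrays. Col6a1 and Col6a2, also neighbours on chromosome 10, had r = 0.98 (p = 0.000595 by exact permutation, 0.00417 after adjustment) and rho = 0.81 (p = 0.0218 by exact permutation, 0.0381 after adjustment). They had r = 0.89 without male control 8 and male OVA 8, the arrays farthest from the median of Col6a1, and r = 0.96 over the 6 OVA arrays.

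Col5a1 and Col5a2 had r = 0.86 (p = 0.00734 by exact permutation, 0.0128 after adjustment) and rho = 0.90 (p = 0.00456 by exact permutation, 0.016 after adjustment), with r = 0.86 without male control 8 and male OVA 13, the arrays farthest from the median of Col5a1, and r = 0.79 over the 6 OVA arrays. Without male control 8 alone, the adjusted p of this pair was 0.0764 by exact permutation (r = 0.77). Col1a1 and Col3a1, whose proteins share fibrils, had r = 0.91 (p = 0.00392 by exact permutation, 0.00914 after adjustment) and rho = 0.88 (p = 0.00724 by exact permutation, 0.0169 after adjustment), with r = 0.93 without female OVA 12 and female OVA 2, the arrays farthest from the median of Col1a1, and r = 0.92 over the 6 OVA arrays. These 4 pairs passed after adjustment.

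The head-to-head pair Col4a1 and Col4a2 did not pass, with r = 0.76 (p = 0.0371 by exact permutation, 0.0512 after adjustment) and rho = 0.60 (p = 0.132 by exact permutation, 0.132 after adjustment). It had r = 0.77 without male OVA 5 and male OVA 1, the arrays farthest from the median of Col4a1, and r = 0.67 over the 6 OVA arrays. Pairs across the classes did not pass either. Col3a1 and Col4a1 had r = 0.77 (p = 0.0438 by exact permutation, 0.0512 after adjustment) and rho = 0.64 (p = 0.0962 by exact permutation, 0.112 after adjustment), and r = 0.96 without male control 8 and female OVA 2, the arrays farthest from the median of Col3a1, and r = 0.55 over the 6 OVA arrays. Col1a1 and Col4a1 had r = 0.63 (p = 0.0978 by exact permutation, 0.0978 after adjustment) and rho = 0.69 (p = 0.0694 by exact permutation, 0.0972 after adjustment), and r = 0.98 without female OVA 12 and female OVA 2, the arrays farthest from the median of Col1a1, and r = 0.49 over the 6 OVA arrays. Female OVA 2 was the lowest array for Col1a1 and Col3a1 but not on the brightest probe set of Col4a1, although it was the lowest, at 106, on the dimmer one. Without this array, Col4a1 had r = 0.97 with Col3a1 (exact permutation, adjusted p = 0.00833), r = 0.88 with Col1a1 (adjusted p = 0.0198) and r = 0.85 with Col4a2 (adjusted p = 0.0222). Without male OVA 1, Col4a1 and Col4a2 had r = 0.82 (exact permutation, adjusted p = 0.0312). Whether pairs within a class correlated more than pairs across classes was not tested.

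**Figure D4:**
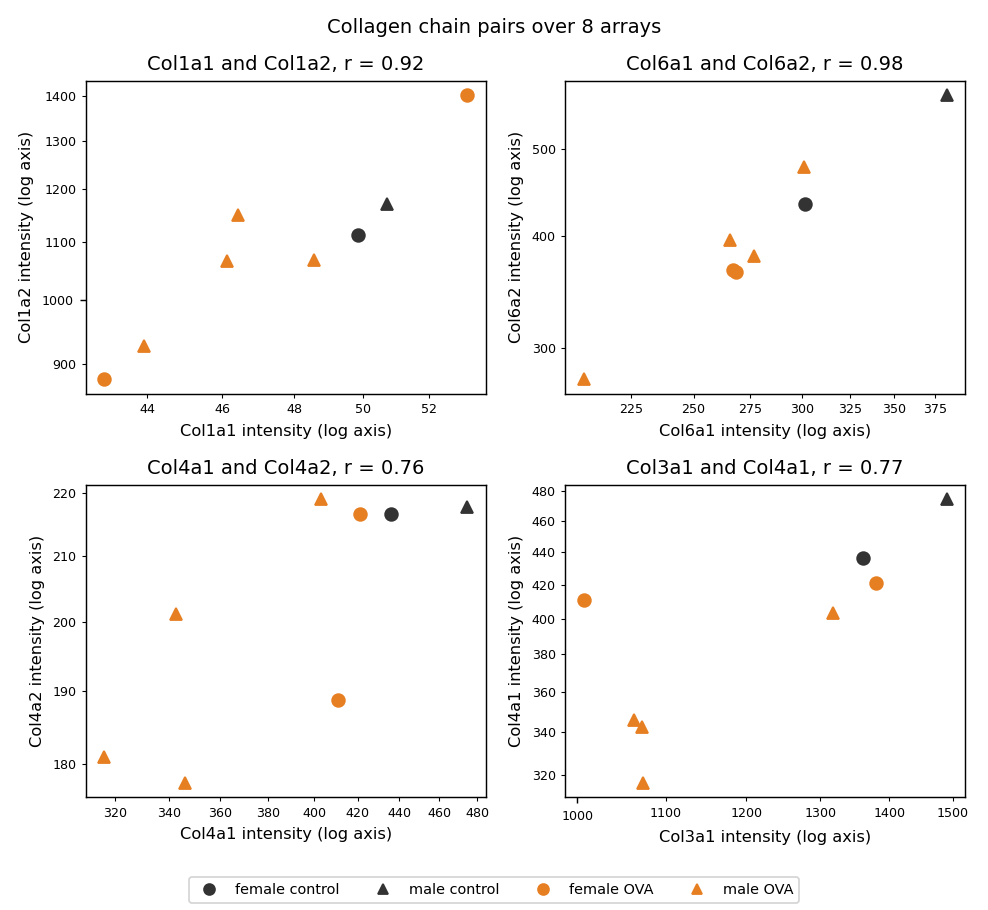
Intensities of 4 chain pairs on log axes, 1 point per array (circles female, triangles male, dark control, orange OVA). Col1a1 and Col1a2 vary together (r = 0.92), whereas in the plot of Col3a1 and Col4a1 (r = 0.77) female OVA 2, the orange circle at the far left, stands above the other arrays of low Col3a1.

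No difference between females and males in a collagen transcript passed the test. In the same fit, 14 of 24 genes were lower in females, against 54% of all genes, and the median was -0.027, against -0.015 over all genes. Here limma gave a smallest adjusted p of 0.901 among collagens, while 0.0533% of all probe sets passed. At an unadjusted p under 0.05, 2 collagens were lower in females, against 4.16% of all genes, and 0 were higher, against 1.16%. These were Col17a1 (-0.62 ± 0.20 SE) and Col6a4 (-0.34 ± 0.13 SE), whose values on each array are given above. Col17a1 passed the filter only through the male OVA mice, so its place here is not independent of the filter. Col14a1, a fibril-associated chain of smooth muscle and tendon, followed at -0.25 ± 0.13 (SE). Its intensity was 73.5 in female control 7 and 74.4 in male control 8, 51.5 and 68.4 in female OVA 2 and 12, and 68.3, 76.3, 73.1 and 90.2 in male OVA 1, 5, 8 and 13, so female OVA 2 was the lowest and the other arrays of each sex overlapped. On the higher side in females were Col4a1 (0.14), Col12a1 (0.17) and Col8a1 (0.059). The dimmer tested probe sets of Col4a1 and Col12a1 had the opposite sign, at -0.061 ± 0.090 (SE) and -0.15 ± 0.13 (SE). Col12a1 had an intensity of 30.4 in female control 7 and 29.7 in male control 8, 41.1 and 23.4 in female OVA 2 and 12, and 25, 27.4, 21.8 and 30.5 in male OVA 1, 5, 8 and 13, and its difference rested on female OVA 2, without which it was -0.066.

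The difference in the OVA effect between the sexes was tested with a fit of 4 group means. Each sex has a lone control, whose spread is taken from that of the OVA mice. The effect was more negative in males for 20 of 24 collagens, against 55.7% of all genes, with medians of -0.17 and -0.046. None passed limma (smallest adjusted p = 0.524), nor did any probe set in the table (0%). At an unadjusted p under 0.05 limma gave 1 collagen on the side lower in males, against 4.18% of all genes, and 0 on the other side, against 2.91%. The former was Col25a1, at -0.53 ± 0.17 (SE), named after its value was seen, and its 2 controls were the extreme arrays.

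Genes that process collagen were split in direction. Of 20 genes for enzymes and chaperones that fold and modify collagen in the endoplasmic reticulum, 15 were tested, 8 higher and 7 lower in OVA mice, with a median of 0.0053. None passed the test. P3h1, a prolyl 3-hydroxylase of collagen, had means of 19.9 ± 6.59 (SD, n = 2) for controls and 13.9 ± 2.06 (SD, n = 6) for OVA mice (-0.33 ± 0.12 (SE)). P3h4, a partner in collagen modification, had means of 12.1 ± 2.33 (SD, n = 2) for controls and 17.3 ± 1.91 (SD, n = 6) for OVA mice (0.36 ± 0.12 (SE)), with all OVA mice above both controls. Among genes for procollagen cleavage and cross-linking, 6 of 14 were tested, 3 higher and 3 lower (median -0.013). Pxdn, which cross-links type IV collagen, was at -0.30 ± 0.12 (SE) and Pcolce, an enhancer of procollagen cleavage, at 0.32 ± 0.21 (SE). Neither passed (limma adjusted p = 0.425 and 0.563).

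Partners of collagen in the matrix were mixed. Of 16 fibril-associated matrix proteins, 15 were tested, 9 lower and 6 higher (median -0.020). Fn1, fibronectin, on which collagen fibrils assemble, had an intensity of 239 in female control 7 and 232 in male control 8, 174 and 183 in female OVA 2 and 12, and 192, 172, 148 and 197 in male OVA 1, 5, 8 and 13. All OVA mice were below both controls, and the difference was -0.40 ± 0.12 (SE) (limma adjusted p = 0.39). Aspn, a small proteoglycan that binds collagen, was at -0.43 ± 0.12 (SE) (limma adjusted p = 0.389), also with all OVA mice below both controls. Others in the list lay on the higher side, and 2 are named after their values were seen. Fmod, fibromodulin, which binds fibrils, had the largest difference of the list at 0.75 ± 0.28 (SE) (limma unadjusted p = 0.0277, adjusted p = 0.413), with all OVA mice above both controls. Lum, lumican, a related proteoglycan, was at 0.40 ± 0.24 (SE) with the groups overlapping.

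Of 15 basement membrane partners, 12 were tested, 9 lower and 3 higher (median -0.11). Nid1, nidogen, which links laminin to type IV collagen, had an intensity of 144 in female control 7 and 158 in male control 8, 114 and 124 in female OVA 2 and 12, and 121, 129, 121 and 114 in male OVA 1, 5, 8 and 13. All OVA mice were below both controls, and the difference was -0.32 ± 0.096 (SE) (limma adjusted p = 0.389). Lama5, a laminin chain, was at -0.18 ± 0.11 (SE).

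Of 10 collagen receptors, 7 were tested, 4 lower and 3 higher (median -0.023), with the receptor kinase Ddr1 at -0.25 ± 0.16 (SE) and the integrin chain Itgb1 at -0.18 ± 0.12 (SE). Of 11 genes of collagen turnover, 9 were tested, 7 lower and 2 higher (median -0.053). Mmp2, a gelatinase made by stromal cells, had means of 208 ± 34.9 (SD, n = 2) for controls and 152 ± 22.7 (SD, n = 6) for OVA mice (-0.44 ± 0.17 (SE)), with all OVA mice below both controls. Timp1, an inhibitor of matrix proteases, was at 0.42 ± 0.20 (SE). None of the genes in these 6 lists passed (smallest limma adjusted p = 0.389).

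**Figure D5:**
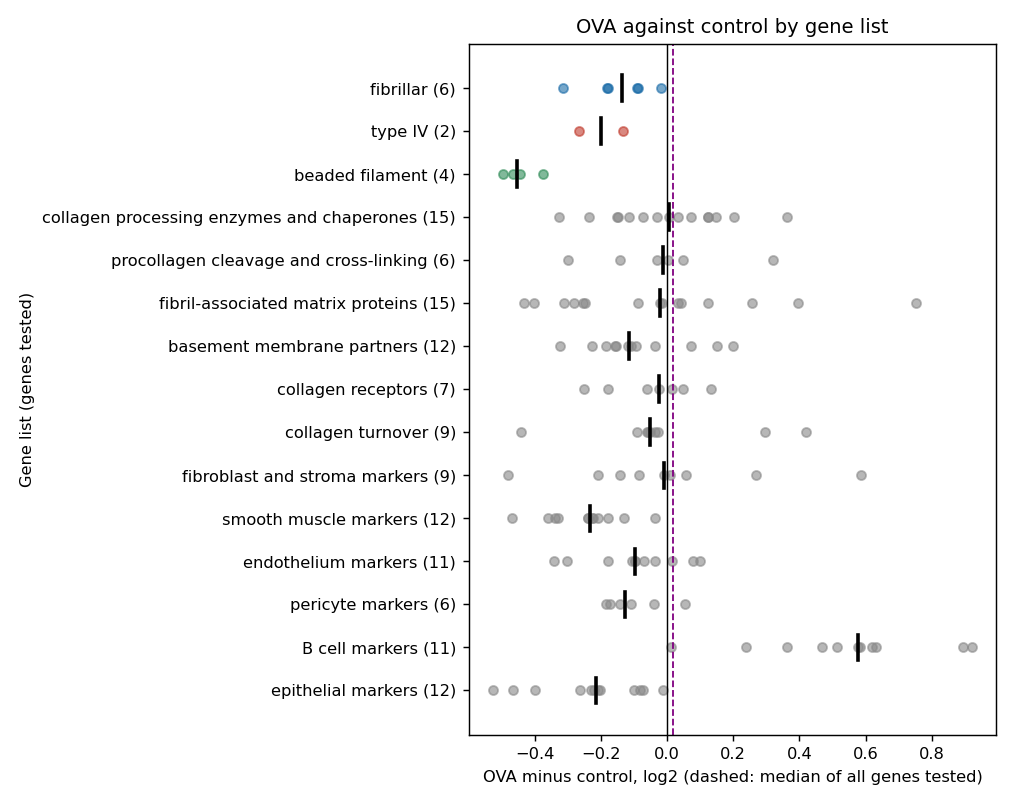
Difference between OVA and control mice on the log2 scale for each tested gene (points) of 3 collagen classes, 6 lists of collagen partners and 6 lists of cell type markers, with the median of each list as a bar and that of all genes as a dashed line. The beaded filament genes lie left of -0.37 or at it, and the medians of the B cell and smooth muscle markers are 0.58 and -0.23.

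Marker levels of the cells that could supply collagen also varied between arrays. All 12 smooth muscle markers were tested and lower in OVA mice (median -0.23), and their score relative to the mean of 8 arrays was 0.27 and 0.16 in female and male control and -0.54 to 0.23 in OVA mice, lowest in male OVA 5 and next in male OVA 8. Of 13 fibroblast and stroma markers, 9 were tested, 5 lower and 4 higher (median -0.0089), with a score of -0.080 and 0.083 in female and male control and -0.14 to 0.17 in OVA mice. The 11 endothelial markers had 8 lower and 3 higher (median -0.096), with a score of -0.054 and 0.17 in female and male control and -0.15 to 0.087 in OVA mice. Of 6 pericyte markers 5 were lower (median -0.13), with a score of 0.044 and 0.11 in female and male control and -0.14 to 0.095 in OVA mice.

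The score of 11 B cell markers was -0.36 and -0.38 in female and male control and -0.31 to 0.62 in OVA mice, highest in female OVA 12 and male OVA 8, arrays whose fibrillar scores were 0.17 and -0.093. The score of 12 epithelial markers was 0.17 and 0.19 in female and male control and -0.37 to 0.14 in OVA mice, lowest in male OVA 8. Of 6 adipocyte markers 3 passed the filter. Adipoq did not pass by its mean but reached 185 on its highest array. For each of the 3 that passed, the highest array was male OVA 5. It had an intensity of 1103 for Fabp4 against 187 to 281 elsewhere, 49.6 for Retn against 9.04 to 15.4, and 138 for Cidec, nearer to the 109 of male OVA 1. Of 7 bone and cartilage markers 1 passed the filter, with Ibsp, Acan, Matn1, Comp and Chad at most 10.4. RNA integrity was read from the beta-actin control probe sets, whose 3′ over 5′ signal was 1.43 for female control 7, 1.54 for male control 8 and 1.58 for male OVA 8, with the remaining OVA mice at 1.29 to 1.37. The part of these cell markers and of RNA integrity in the collagen differences was not tested.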

How the data were processed

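Linear intensities of probe sets were used as the authors deposited them, from a single-colour array hybridised with biotin-labelled cRNA. MAS5 is the tool named, per the submitters' processing notes, with version and settings not given in the sources used here; no further scaling was applied. Probe sets were named from the platform annotation, in which 34958 name 1 gene, 932 several and 9211 none. All 42 collagen genes matched RefSeq by gene identifier, and 0 symbols were updated.

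Intensities were taken to log2(value + 4.88), the 25th percentile of all values. After leaving out 64 control probe sets, those whose mean log2 value exceeded the median probe set's (intensity 11.9) were tested. A gene was read at its brightest tested probe set. limma 3.58.1 (R 4.3.3) fitted treatment and sex on 8 arrays with 5 residual degrees of freedom, and 4 group means for the difference between sexes (4 degrees). The fits were checked on simulated data. Python 3.11.15 with SciPy 1.17.1 made the permutation tests. The limma p-values rest on spread between single mice, shrunk towards that of all probe sets. With 1 control of each sex, this spread comes mostly from the OVA mice. The permutation p-values give the share of pairings of the arrays with a correlation at least as strong.

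The members and lists were chosen with earlier results of these data known. Values on every array are given for tested fibrillar and type IV genes and, by smallest p, for 3 collagens on each side for OVA and for sex. In each list of collagen partners the 2 genes of smallest p for OVA are named. Fmod and Lum were added after their values were seen. Col6a2 and Col23a1 were added as remaining members at a limma unadjusted p under 0.05.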

Additional observations from a re-analysis of the deposited data

Results flagged for a closer look

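Samples far from the others of their group were looked for in the intensities of the 24 tested collagens and in 4 class scores, over the 6 OVA arrays and over the 4 male OVA arrays. Dixon's test at 95% marked 6 of 56 groups, where chance alone marks about 1 in 20, or 2.8. Male OVA 13 was the highest of the male OVA arrays for Col3a1 (1317 against 1063 to 1074), Col6a3 (229.2 against 158.8 to 169), Col15a1 (20.9 against 14.8 to 14.9) and the fibrillar score (7.65 against 7.47 to 7.5 log2). For Col15a1 it also stood apart from all 6 OVA arrays, the others at 12.7 to 15.3. Male OVA 8 was the highest OVA array for Col16a1, at 47.7 against 42.4 to 44.2. No collagen differed between the sexes in its OVA effect by the test of that difference.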

How the results depend on the processing

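No paired analysis was possible because a control and an OVA mouse shared a label number only among males (8), fewer than 2 shared numbers. The alternatives were 8 that leave out 1 array and 13 others. No alternative called a probe set for OVA against control or for the difference in OVA effect between the sexes, while female against male had 4 to 14. The interaction could not be fitted without either control. Of the 24 collagens, 14 kept the sign of their OVA difference in every setting and 10 changed it in some; the cause was not tested. With a filter at the 75th percentile 4 probe sets were called for sex, 12 of the fewer collagen genes it kept were lower and the collagen median was -0.25. With no filter 37 of the 42 genes were lower, 8 at an unadjusted p under 0.05. These filters test fewer or more genes. The share of all genes lower, or lower at an unadjusted p under 0.05, was not taken under any alternative. The count of collagens lower at an unadjusted p under 0.05 was 0 with females alone and 1 to 7 with an array left out. The beaded filament median was -0.26 with females alone and -0.58 to -0.26 with an array left out.

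Within females alone the sign turned for Col5a1 (0.047), Col9a3 (0.012), Col12a1 (0.029), Col13a1 (0.053), Col16a1 (0.014) and Col20a1 (0.18), and within males alone for Col14a1 (0.038), Col25a1 (-0.18) and Col27a1 (0.022). With array quality weights it turned for Col12a1 (0.036) and Col20a1 (0.00088). For Col27a1 it turned with no covariate (0.013) and with the mean of its probe sets (0.059). Over the left-out arrays the differences ran -0.23 to 0.030 for Col1a2, -0.37 to 0.047 for Col5a1, -0.087 to 0.012 for Col9a3, -0.22 to 0.045 for Col12a1, -0.25 to 0.053 for Col13a1, -0.29 to 0.038 for Col14a1, -0.10 to 0.014 for Col16a1, -0.18 to 0.18 for Col20a1, -0.18 to 0.36 for Col25a1 and -0.066 to 0.038 for Col27a1. For Col12a1, female against male ran -0.066 to 0.36 with an array left out and was -0.15 with plain probe sets.

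Across the arrays left out, r ran 0.67 to 0.85 for Col4a1 and Col4a2, 0.77 to 0.90 for Col5a1 and Col5a2, 0.51 to 0.88 for Col1a1 and Col4a1 and 0.66 to 0.97 for Col3a1 and Col4a1. With quantile normalization r was 0.80 for Col4a1 and Col4a2 and 0.81 for Col3a1 and Col4a1, and with the mean of all probe sets 0.84 and 0.96; all 4 passed the exact permutation test after adjustment. Signals near the filter, as for Col8a1, Col9a3, Col15a1 and Col17a1, lie near the median intensity of all probe sets and have the least signal over background.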

Other observations

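Of the enteric neuron and glia markers 3 of 10 passed the intensity filter, 2 higher and 1 lower in OVA mice, with a median of 0.066. Their score relative to the mean of 8 arrays was 0.024 and -0.068 in female and male control and -0.13 to 0.13 in OVA mice. The 3′ over 5′ signal of Gapdh was 0.896 and 1 in female and male control and 0.834 to 0.96 in OVA mice.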
